A study of Mus musculus with 14 samples.

Results

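The genes followed here encode the CD3 chains of the T cell receptor complex (Cd3e, Cd3d, Cd3g), the coreceptors (Cd4, Cd8a, Cd8b1), the receptor-proximal kinase Lck, the adhesion receptor Cd2, the interleukin 7 receptor chain Il7r and the surface glycoprotein Thy1. Every probe set that the platform annotation gives to one of these 10 symbols was taken, whatever its level. The rule yielded 10 probe sets of 9 genes, out of 12422 probe sets without controls and 8251 genes with a probe set of their own. Cd3d has 2 probe sets. The annotation used here gives no probe set to Lck, which therefore has no value.

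RNA labelled as murine lymph node was hybridised to 14 single-colour Affymetrix arrays. Of the arrays of Atm-/- mice (KO), 3 were untreated, 2 were from 30 min and 2 from 120 min after ionizing radiation (IR), and those of Atm+/+ mice (WT) were divided in the same way. Atm encodes a kinase that DNA double-strand breaks switch on, and the design asks how the response to IR differs when it is missing. The sources used here do not give the strain, age or sex of the animals, the nature of the Atm allele, the radiation dose or whether nodes were pooled. They also do not say that replicate letters stand for different animals, and p-values then cover only the spread between these samples, which may be technical.

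T cells recognise antigen with a receptor whose variable chains cannot signal by themselves. The CD3 chains carry the activation motifs, CD4 or CD8 binds the presenting MHC molecule and brings LCK to them, and ZAP70, LAT and SLP-76 pass the signal on. CD2 binds ligands on the partner cell, signals through the interleukin 7 receptor keep resting T cells of lymph nodes alive, and THY1 marks mouse T cells but is also made by neurons and some stromal cells. T cells make up a large share of a lymph node, so these transcripts also serve as a readout of how many T cells a piece of tissue contains. In bulk RNA of this kind, fewer T cells and less RNA per T cell cannot be told apart.

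The labelled tissue was only partly borne out by marker genes. Of the 9 measured genes of a salivary gland list, 8 had a median rank at or above the 99th percentile of the array, and the list summed to between 45276 and 77307 in deposited intensity. B cell genes were present as well, with sums of 2929 to 6429 over 17 genes. The probe sets of the 9 T cell genes, at 1 per gene, summed to between 460.3 and 882.7. Brightness depends on the probe as well as on the transcript, so these sums do not compare amounts of RNA. RNA quality, read as the ratio of the 3′ to the 5′ Gapdh probe set, lay between 0.723 and 1.07, and the lowest mean correlations with the other arrays were those of the first KO array at 30 min, the first untreated WT array and the first KO array at 120 min. The single Atm probe set was dim in both genotypes, at 44, 7.5 and 24 on untreated KO arrays against 54.8, 34.5 and 8.1 on untreated WT arrays (KO minus WT averaged over conditions -0.33 ± 0.22, limma adjusted p = 0.866). The sources used here do not place this probe set inside or outside the disrupted part, so it is no check of the genotype labels.

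The deposited values are linear intensities, scaled before deposit to the same trimmed mean on every array. They were taken as log2(value + 32) and quantile normalized, and testing was limited to probe sets that exceeded the 40th percentile of the array, which corresponded to 38.3 to 55.28, on 2 or more arrays. Of the 10 T cell probe sets 7 were tested, and the number of arrays above the percentile was 14 for Thy1 and Il7r, 12 for Cd4, 10 for Cd3e, 7 for Cd2, 5 for Cd3d and 3 for Cd8b1. The probe sets of Cd3g and Cd8a, at 1 and 0 arrays, and the second probe set of Cd3d, at 0 arrays, were not tested. Cd3d and Cd8b1 passed through the groups in which they were high, so counts over the 7 tested probe sets do not stand for all 10. Changes are differences of group means of log2(value + 32), a scale that compresses the changes of dim probe sets, and are given ± the standard error of a limma fit to all 14 arrays. A probe set was called at a Benjamini-Hochberg adjusted p under 0.05 over the 8938 probe sets tested. Whether groups overlapped was judged on deposited intensities, before quantile normalization, for the T cell genes and for all probe sets alike. No T cell probe set was called in any of the 10 comparisons, so the differences below are reported as measured values that did not pass the test.

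**Figure D1:**
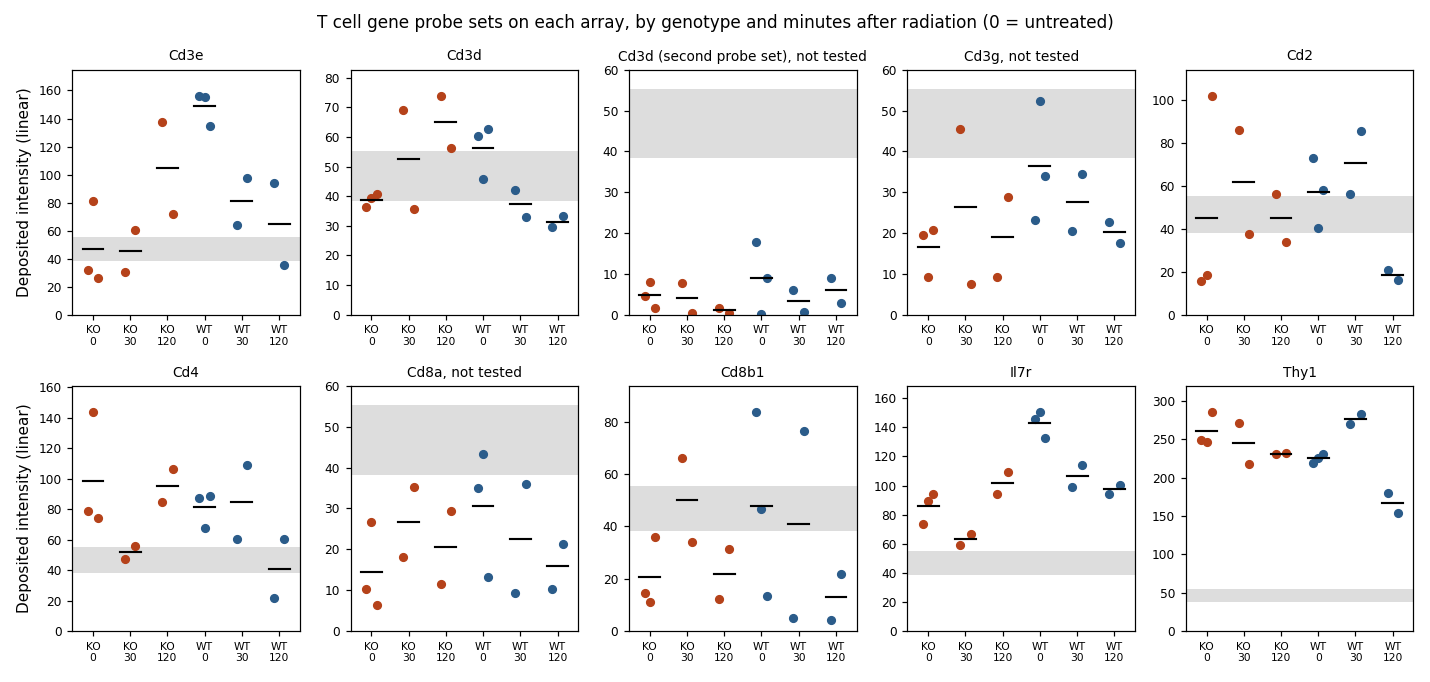
Deposited intensity (linear scale) of each T cell probe set on every array, with KO groups to the left of WT groups and untreated, 30 min and 120 min from left to right within a genotype; points are arrays, bars are group means and the grey band is the range of the 40th percentile over the 14 arrays. Cd3e, Cd3d and Il7r lay lower on all 3 untreated KO arrays than on all 3 untreated WT arrays, while Thy1 lay higher.

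Without radiation, 3 of the 7 tested genes lay lower on every KO array than on every WT array: Cd3e, Cd3d and Il7r. Over all 8938 probe sets this held for 4.69%. None of the 7 was called, and 0% of all probe sets were called in this comparison by limma, with 5.48% at an unadjusted p under 0.05. Among the T cell genes the unadjusted count was also these 3, all lower in KO, against 2.49% of all probe sets in that direction. Cd3d was close to that threshold, at an unadjusted limma p of 0.0486, and stayed under it in 8 of 25 alternatives to the processing. Without the third untreated WT array its limma p was 0.162. Cd3e stayed under the threshold in 25 of 26 alternatives and Il7r in 26 of 26. Altogether 5 of the 7 changes were below 0, against 50% of all probe sets.

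Cd3e, the epsilon chain that pairs with the gamma and the delta chain, had the largest difference of the 7. Its probe set read 32.2, 81.5 and 26.2 on the untreated KO arrays, against 156.1, 155.3 and 134.5 on the untreated WT arrays. The WT arrays were close together, whereas the second KO array was well above the other KO arrays. Means were 46.6 ± 30.3 in KO and 149 ± 12.3 in WT (SD, n = 3 each). The log2 change was -1.28 ± 0.32 (95% confidence interval -1.98 to -0.58), with a limma adjusted p of 0.634. It corresponds to 0.413-fold for value + 32, not for the intensity itself.

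Cd3d, the delta chain that pairs with CD3 epsilon, read 36.3, 39.3 and 40.9 on the untreated KO arrays, against 60.2, 45.9 and 62.6 on the untreated WT arrays. The groups did not overlap, but all 3 KO values and the second WT value, 45.9, lay below the 40th percentile of their array. The change was -0.34 ± 0.15 (adjusted p = 0.911). The second Cd3d probe set, never above 17.9 on any array, gave 4.6, 8.1 and 1.7 in KO and 17.9, 0.2 and 9.1 in WT, which overlap. Cd3g, the gamma chain, read 19.6, 9.3 and 20.7 in KO and 23.1, 52.4 and 34 in WT, with no KO array reaching the lowest WT array, but all but 1 of these 6 values were below the 40th percentile and the probe set was not tested.

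Il7r, the alpha chain of the interleukin 7 receptor, which also occurs on lymphoid progenitors, read 73.4, 89.7 and 94.1 on the untreated KO arrays, against 145.8, 150.4 and 132.4 on the untreated WT arrays. All 3 KO arrays lay below the dimmest WT array, and both groups were tight. The change was -0.59 ± 0.15 (95% confidence interval -0.91 to -0.26), a 0.666-fold level, with an adjusted p of 0.634. By p-value Cd3e ranked 19 and Il7r ranked 21 among the 8938 probe sets.

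The other T cell genes did not separate in the same way. Cd2 read 15.6, 18.4 and 102 in untreated KO against 73, 40.4 and 58.3 in untreated WT, so the brightest and the 2 dimmest of these 6 arrays were all KO, and the change was -0.38 ± 0.35. Cd4, the coreceptor of helper cells, read 78.5, 143.7 and 74.2 in KO against 87.1, 67.4 and 88.9 in WT, with overlap and a change of 0.18 ± 0.25. Cd8b1, the beta chain of the CD8 coreceptor, read 14.4, 11 and 36 in KO against 83.6, 46.7 and 13.2 in WT and also overlapped (-0.56 ± 0.39). Cd8a stayed under the 40th percentile on every array, at 10.4, 26.6 and 6.4 in KO against 35, 43.3 and 13.2 in WT. Thy1 had the opposite sign, with 249.6, 246.7 and 285.6 in KO against 218.8, 225.5 and 231.3 in WT and a change of 0.19 ± 0.14 (adjusted p = 0.982). Groups that did not overlap in that direction made up 5.53% of all probe sets.

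Skeletal muscle genes also separated these groups in level. All 13 tested genes of a muscle list were higher in untreated KO, 12 of them at an unadjusted p under 0.05, against 2.99% of all probe sets in that direction, and none called, with a median change of 1.51. The list summed to between 3731 and 11527 on the untreated KO arrays and between 1403 and 3249 on the untreated WT arrays. With the muscle level of each array as a covariate, an alternative added after seeing the data, Cd3e was at -0.57 ± 0.42, Cd3d at -0.26 ± 0.24 and Il7r at -0.62 ± 0.24, and the unadjusted count of 3 was 1, Il7r. The second KO array, the brightest of the 3 for Cd3e and Cd4, had a muscle level of 0.0471 against 1.69 and 1.75 on the others (mean standardized log2 value). The other tested T cell genes were brightest on the third KO array, whose muscle level was 1.75. They read 40.9 for Cd3d, 102 for Cd2, 36 for Cd8b1, 94.1 for Il7r and 285.6 for Thy1 there. Muscle level and genotype were confounded in these arrays, and the part of muscle in the result was not tested.

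The sequences upstream of Cd3e, Cd3d and Il7r are shown because these are the tested genes whose untreated KO arrays all lay below the WT arrays. They are RefSeq windows (GRCm38.p6) from 250 bases before to 50 bases after the annotated start. Cd3e lies on the minus strand of chromosome 9 at chr9:45009562-45009861, Cd3d on the plus strand at chr9:44981536-44981835, and Il7r on the minus strand of chromosome 15 at chr15:9529827-9530126. Cd3d is read away from its neighbour Cd3g, whose start site is 1355 bases off on the other strand. Capitals mark matches, on either strand, to the core letters bound by ETS factors (AGGAAG), RUNX factors (TGTGGT), E proteins (CAGNTG) and GATA factors (AGATAA).
Cd3e: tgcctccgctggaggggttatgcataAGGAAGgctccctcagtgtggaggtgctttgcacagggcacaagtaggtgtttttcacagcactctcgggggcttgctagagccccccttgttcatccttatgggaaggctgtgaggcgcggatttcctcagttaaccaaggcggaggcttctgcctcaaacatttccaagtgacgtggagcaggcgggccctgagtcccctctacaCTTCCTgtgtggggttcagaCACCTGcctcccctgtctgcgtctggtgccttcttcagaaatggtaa
Cd3d: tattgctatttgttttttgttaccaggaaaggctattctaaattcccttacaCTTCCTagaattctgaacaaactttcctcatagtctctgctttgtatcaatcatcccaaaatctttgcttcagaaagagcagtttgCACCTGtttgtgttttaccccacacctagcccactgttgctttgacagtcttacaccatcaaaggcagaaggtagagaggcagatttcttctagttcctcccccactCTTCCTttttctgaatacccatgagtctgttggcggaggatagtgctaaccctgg
Il7r: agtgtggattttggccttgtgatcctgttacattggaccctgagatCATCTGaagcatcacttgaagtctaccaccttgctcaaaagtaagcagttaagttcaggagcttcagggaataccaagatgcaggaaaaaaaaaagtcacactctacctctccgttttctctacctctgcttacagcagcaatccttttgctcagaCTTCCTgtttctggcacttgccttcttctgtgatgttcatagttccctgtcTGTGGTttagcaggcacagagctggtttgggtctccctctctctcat
Each window holds an ETS match close to the start, 17 bases before it in Cd3e, 5 in Cd3d and 48 in Il7r. Cd3e and Cd3d hold 2 ETS matches each and Il7r holds 1. The E-box letters occur once in each window, the RUNX letters only in Il7r and the GATA letters in none of the 3. No matches overlap. Of the other T cell genes with a window, Cd3g and Cd8a held 0 ETS matches each, and the Lck windows held 1 and 3. Among the 32851 promoter windows of the same length, 35.4% hold the ETS letters, 51.4% the E-box letters, 16.8% the RUNX letters and 11.2% the GATA letters. These shares count a match anywhere in the window, not one close to the start. These matches are descriptions of letters, not of binding.

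**Figure D2:**
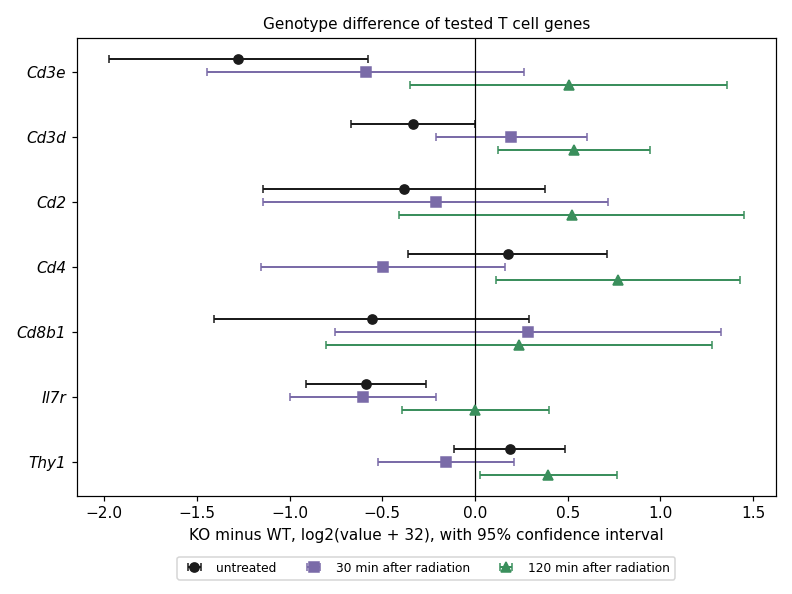
KO minus WT difference of the 7 tested T cell genes on the log2(value + 32) scale, with 95% confidence intervals of the limma fit, for untreated arrays (circles), 30 min (squares) and 120 min (triangles) after radiation. Cd3e was at -1.28 untreated and at 0.51 at 120 min (0.00 to 1.002 with single arrays left out), while Il7r was at -0.59 untreated, -0.60 at 30 min and 0.00 at 120 min.

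The response to radiation was then taken within each genotype. In KO no probe set was called at either time (0% of 8938). At an unadjusted p under 0.05 limma counted 8.38% of all probe sets at 30 min and 7.22% at 120 min. At 30 min the only one of the 7 at that level was Cd4, at 47.6 and 56 against 78.5, 143.7 and 74.2 untreated (-0.62 ± 0.28, adjusted p = 0.59). Il7r read 59 and 66.9, the 2 dimmest deposited Il7r values of the series, against 73.4, 89.7 and 94.1 untreated (-0.33 ± 0.17). Cd4 and Il7r had no overlap with the untreated arrays in deposited intensity, as for 11.7% of all probe sets in that direction. After quantile normalization Il7r overlapped, with the second KO array at 30 min at 6.71 and the first untreated KO array at 6.69. The unadjusted count of 1 at 30 min was 0 to 2 with single arrays left out, and 0 without the first KO array at 30 min, the second untreated KO array, either KO array at 120 min, or the first or the third untreated WT array. It was 2 without the first or the third untreated KO array or the second KO array at 30 min. Cd3e averaged close to its untreated level, at 30.5 and 60.2 (0.02 ± 0.36).

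At 120 min in KO 2 of the 7, Cd3e and Cd3d, had an unadjusted p under 0.05, both with higher values. Cd3e read 137.8 and 72.2, against 32.2, 81.5 and 26.2 untreated. The dimmer irradiated array lay below the brightest untreated one, and the change was 0.84 ± 0.36 (adjusted p = 0.675). Cd3d read 73.8 and 56.1 against 36.3, 39.3 and 40.9 untreated, with both irradiated arrays above all untreated ones (0.47 ± 0.17, adjusted p = 0.646), as for 13.2% of all probe sets. Il7r read 94.1 and 109.1 (0.20 ± 0.17), Cd2 56.3 and 34 (0.17 ± 0.39), Cd4 84.5 and 106.2 (0.00 ± 0.28) and Cd8b1 12.4 and 31.4 (0.06 ± 0.44), all overlapping the untreated arrays. Thy1 read 230.8 and 231.8, below the 3 untreated arrays (-0.16 ± 0.16), as for 13.8% of all probe sets. Without the first KO array at 120 min, 1 of the 3 arrays with the lowest correlations, Cd3e was at 0.48 and Cd3d at 0.34, and neither kept an unadjusted p under 0.05. Without the first untreated KO array the count of 2 was 1. Muscle genes were lower at 120 min in KO, with a median of -1.53 and all 13 below 0, and with the muscle covariate Cd3e was at 0.10 ± 0.45 and Cd3d at 0.39 ± 0.26.

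In WT, at 30 min, 0.101% of all probe sets were called and none of the 7, and 4 of the 7 lay below 0, against 49.7%. Cd3e gave 63.9 and 97.8 in WT at 30 min, against 156.1, 155.3 and 134.5 untreated (-0.67 ± 0.36). Il7r read 99 and 113.9 at 30 min, against 145.8, 150.4 and 132.4 untreated (-0.31 ± 0.17). For these 2 genes and for Cd3d (-0.31 ± 0.17) every irradiated array lay below every untreated one, as for 10.4% of all probe sets. Thy1 was the reverse, with 270.2 and 282.7 at 30 min against 218.8, 225.5 and 231.3 untreated (0.27 ± 0.16), a separation seen for 9.06% of all probe sets. Every adjusted p among the 7 was at or above 0.98.

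At 120 min in WT all 7 changes were below 0, against 50.6% of all probe sets, and none was called, against 0.515% of all probe sets. For 6 of the 7, all but Cd8b1, both irradiated arrays lay below all untreated arrays, against 15.2% of all probe sets. At an unadjusted p under 0.05 limma counted 4 of 7 lower, against 4.01% of all probe sets. The 4 were Cd3e, Cd3d, Il7r and Thy1.

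Cd3e read 93.8 and 35.5 in WT at 120 min, which gives -0.94 ± 0.36 (adjusted p = 0.491). The replicates of this gene were far apart. Il7r read 94.5 and 100.7 at 120 min (-0.39 ± 0.17, adjusted p = 0.551), so its replicates were close. Cd3d read 29.6 and 33.2 (-0.41 ± 0.17), below the 40th percentile on both arrays. Thy1 read 179.6 and 153.6, the 2 dimmest values of that gene on any array, which puts the change on the other side of 0 than at 30 min (-0.36 ± 0.16, adjusted p = 0.551).

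Cd2, Cd4 and Cd8b1 also had negative values at that time. Cd2 read 20.9 and 16.4 at 120 min against 73, 40.4 and 58.3 untreated (-0.74 ± 0.39). Cd4 read 21.7 and 60.2 against 87.1, 67.4 and 88.9 untreated (-0.59 ± 0.28, adjusted p = 0.587). Cd8b1 read 4.3 and 21.7 against 83.6, 46.7 and 13.2 untreated (-0.73 ± 0.44), with overlap at the dimmest untreated array. Cd3g and Cd8a, not tested, read 22.7 and 17.6 and 10.2 and 21.4 at 120 min. The unadjusted count of 4 was lower without either WT array at 120 min, a fit that leaves 1 array in that group. Without the second one, Cd3e was at -0.44, Cd3d at -0.35, Il7r at -0.39 and Thy1 at -0.26. Cd4, not one of the 4, was then at -0.90. Without the first untreated WT array the count of 4 was 2, and with the muscle covariate it was 0. Muscle genes were also higher at that time, with a median change of 0.69 over 13 genes, all above 0.

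**Figure D3:**
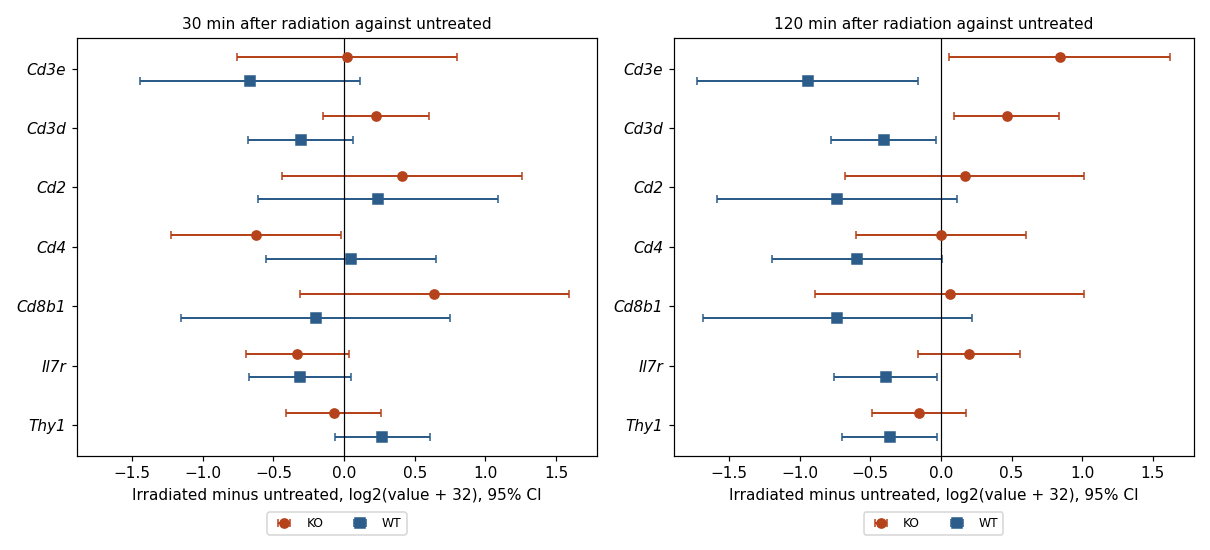
Change from untreated to 30 min (left) and 120 min (right) after radiation in KO (circles) and WT (squares) for the 7 tested T cell genes, on the log2(value + 32) scale with 95% confidence intervals of the limma fit. At 120 min the KO changes lay between -0.16 and 0.84, and the WT changes between -0.94 and -0.36.

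The genotypes were then compared after radiation. At 30 min 0.101% of all probe sets were called and none of the 7. Il7r was the 1 gene of the 7 with an unadjusted p under 0.05, against 6.7% of all probe sets, with 59 and 66.9 in KO against 99 and 113.9 in WT (-0.60 ± 0.18, adjusted p = 0.629), a difference of the size seen without radiation in separate arrays. Cd3e read 30.5 and 60.2 in KO against 63.9 and 97.8 in WT (-0.59 ± 0.39), and Cd4 read 47.6 and 56 in KO against 60.2 and 109.2 in WT (-0.50 ± 0.30). In these 3 genes both KO arrays lay below both WT arrays in deposited intensity, as for 15.1% of all probe sets. After quantile normalization Cd3e and Cd4 overlapped, and of the 3 only Il7r stayed separate. Of the other 4 genes, Cd2 (-0.21 ± 0.43) and Thy1 (-0.16 ± 0.17) also lay below 0, while Cd3d (0.20 ± 0.19) and Cd8b1 (0.28 ± 0.48) lay above it, and all 4 overlapped. Without the first KO array at 30 min the unadjusted count of 1 was 0, and without either WT array at 30 min it was 2.

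At 120 min none of the 7 differences was below 0, against 50.6% of all probe sets, and 0.257% of all probe sets were called but none of the 7. The unadjusted p was under 0.05 with a higher KO value for 3 of the 7, against 3.43% of all probe sets. Cd3d read 73.8 and 56.1 in KO against 29.6 and 33.2 in WT (0.53 ± 0.19, adjusted p = 0.477). Cd4 read 84.5 and 106.2 in KO against 21.7 and 60.2 in WT (0.77 ± 0.30, adjusted p = 0.57). Thy1 read 230.8 and 231.8 in KO against 179.6 and 153.6 in WT (0.40 ± 0.17, adjusted p = 0.64). With Cd2, at 56.3 and 34 in KO against 20.9 and 16.4 in WT, these genes had no overlap between genotypes, as 22.9% of all probe sets did in that direction. Without the second WT array, the first KO array or the second KO array at 120 min, or with the muscle covariate, the unadjusted count of 3 was 1. Cd3e (0.51 ± 0.39) overlapped between genotypes and lay between 0.00, without the second WT array, and 1.002, without the first WT array, when single arrays were left out. Without the first KO array it was at 0.15. Il7r differed by less than its error, at 94.1 and 109.1 in KO against 94.5 and 100.7 in WT (0.00 ± 0.18).

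The test of the difference between the responses, KO minus WT, called 0.134% of all probe sets at 120 min and none of the 7. All 7 values were above 0, against 49.3% of all probe sets. The largest was that of Cd3e, 1.78 ± 0.51 (95% confidence interval 0.68 to 2.89, adjusted p = 0.408), followed by Cd2 (0.90 ± 0.55), Cd3d (0.87 ± 0.24, adjusted p = 0.399), Cd8b1 (0.80 ± 0.62), Cd4 (0.59 ± 0.39), Il7r (0.59 ± 0.24, adjusted p = 0.646) and Thy1 (0.21 ± 0.22). At an unadjusted p under 0.05 limma counted Cd3e, Cd3d and Il7r, 3 of 7, against 3.52% of all probe sets in that direction. With the muscle covariate the count was 0 and Cd3e was at 0.72 ± 0.64, while Cd3d was at 0.76 ± 0.37 and Il7r at 0.64 ± 0.36. At 30 min the test called 0.0783% of all probe sets and none of the 7, and Cd3d (0.53 ± 0.24) was the 1 gene with an unadjusted p under 0.05, against 5.59% of all probe sets. That count of 1 was 0 for 10 of the 14 arrays when left out singly, the exceptions being both WT arrays at 30 min, the second untreated WT array and the second KO array at 30 min. Averaged over the 3 conditions, 0.168% of all probe sets were called, and Il7r was the 1 T cell gene at an unadjusted p under 0.05, against 6.44% of all probe sets (-0.40 ± 0.10, adjusted p = 0.29), a count of 1 or 2 when single arrays were left out. These comparisons share the untreated arrays, so a bright untreated WT group or a dim untreated KO group enters the genotype difference, both responses and their difference together.

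Ordered by mean intensity, the 6 groups ran for Cd3e upward from KO at 30 min at 45.4 ± 21.0 (SD, n = 2) and untreated KO at 46.6 ± 30.3 (SD, n = 3) through WT at 120 min at 64.7 ± 41.2, WT at 30 min at 80.9 ± 24.0 and KO at 120 min at 105 ± 46.4 (SD, n = 2 each) to untreated WT at 149 ± 12.3 (SD, n = 3). Ranges of neighbours overlapped at every step of this order. For Il7r the order was KO at 30 min at 63.0 ± 5.59 (SD, n = 2), untreated KO at 85.7 ± 10.9 (SD, n = 3), WT at 120 min at 97.6 ± 4.38, KO at 120 min at 102 ± 10.6 and WT at 30 min at 106 ± 10.5 (SD, n = 2 each), then untreated WT at 143 ± 9.35 (SD, n = 3). Here the first, the second and the last step had no overlap in deposited intensity, and the steps between them overlapped. After quantile normalization the first step overlapped too. Thy1 covered a narrow span, with group means between 167 ± 18.4 in WT at 120 min and 276 ± 8.84 in WT at 30 min (SD, n = 2 each).

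**Figure D4:**
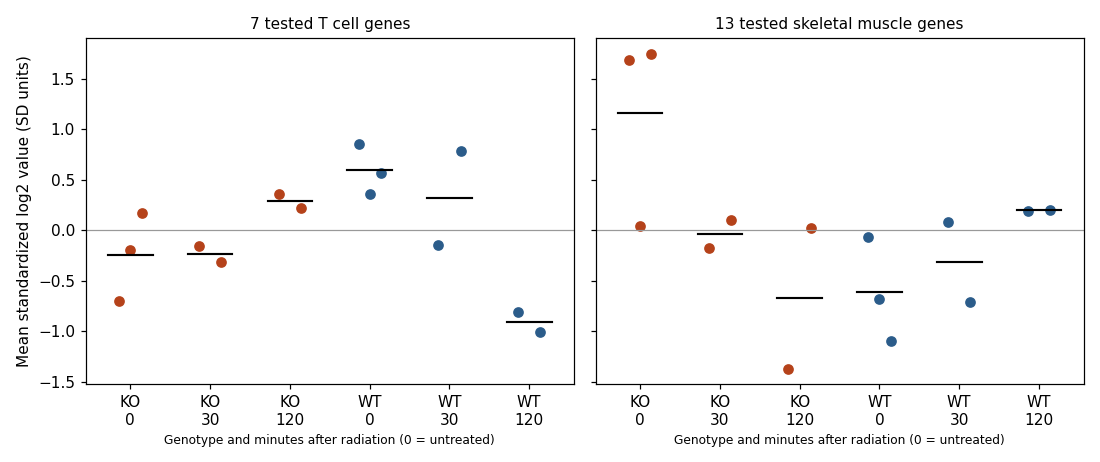
Mean standardized log2 value, in SD units, of the 7 tested T cell genes (left) and of 13 tested skeletal muscle genes (right) on each array, with KO groups left of WT groups; points are arrays and bars are group means. The T cell score lay between -0.70 and 0.17 on untreated KO arrays and between 0.36 and 0.86 on untreated WT arrays, and at 0.36 and 0.22 in KO against -0.81 and -1.01 in WT at 120 min.

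The 7 genes varied together only loosely over the 14 arrays. The correlation of each with the mean of the other 6, given as a description over arrays that share groups, was 0.547 for Cd2, 0.419 for Cd3e, 0.382 for Cd3d, 0.368 for Cd8b1, 0.348 for Il7r, 0.306 for Cd4 and 0.278 for Thy1. The probe sets most like the mean of the 7, by Pearson r over the 14 arrays, were those of Ltb (0.877), Ptprc (0.873), Ms4a1 (0.846), Cytip (0.841), Mlx (0.831), Lat2 (0.827), Ptprcap (0.822), Ube2c (0.802), Cd53 (0.800) and Ptgir (0.789). Ltb encodes lymphotoxin beta of B and T cells, Ptprc encodes CD45 of all leukocytes and Ptprcap its associated protein, and Ms4a1 encodes the B cell antigen CD20. Ptgir averaged 21 in deposited intensity and was a dim probe set.

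Of a list of further genes of the T cell receptor pathway, 25 were on the array and 23 were tested, and none was called in any comparison. Their median KO minus WT difference without radiation was -0.11, with 16 of 23 below 0 (50% of all probe sets), against a median of 0.00 over all probe sets and -0.38 for the 7 T cell genes. Cd247, the zeta chain of the receptor complex, was at -0.52 ± 0.29, the exchange factor Vav1 at -0.46 ± 0.22 and the Ras activator Rasgrp1 at 0.62 ± 0.36, the 3 largest differences of the list. At 120 min in WT the median was -0.23, with 17 of 23 below 0, against 50.6% of all probe sets. The phosphatase Ptprc was at -0.87 ± 0.18 (adjusted p = 0.0631), while the kinase subunit Pik3cd was at 1.10 ± 0.41 and Rasgrp1 at 0.92 ± 0.41, so the list held values of both signs.

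The difference of responses at 120 min had a median of 0.42 over the 23 pathway genes, with 16 above 0, against 49.3% of all probe sets. Ptprc was at 1.39 ± 0.26 (adjusted p = 0.0757), the small GTPase Rac2 at 1.44 ± 0.40 and the actin regulator Coro1a at 1.11 ± 0.36. Between the genotypes at 120 min Ptprc was at 1.06 ± 0.20 (adjusted p = 0.057), which was the smallest adjusted p of the pathway list. All 3 of these genes are made by leukocytes in general rather than by T cells alone.

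Of the list of other T cell genes 29 were on the array and 23 were tested, again with none called. Without radiation 21 of 23 lay below 0 in KO, against 50% of all probe sets, with a median of -0.18. The surface receptors Cd5 (-0.71 ± 0.42), Cd53 (-0.59 ± 0.27) and Cd27 (-0.41 ± 0.18) had the largest differences. At 120 min in KO the median was 0.31, with the SLAM family receptor Ly9 at 0.70 ± 0.26 and the costimulatory receptor Icos at 0.67 ± 0.30. At 120 min in WT the median was -0.27, and the largest changes were those of the tetraspanin Cd53 (-1.19 ± 0.30), the lymphocyte surface peptide Cd52 (-1.16 ± 0.25, adjusted p = 0.0783) and Ltb (-0.76 ± 0.21). The difference of responses in that list had a median of 0.68, with 10 of 23 above 0 at an unadjusted p under 0.05, against 3.52% of all probe sets. The list is not particular to T cells, as Ltb is also made by B cells and Ccr7 also stood on the list of dendritic cell genes. Of 6 variable segment genes of the receptor, a list added after seeing the data, 3 were tested, with medians of -0.39 between untreated genotypes and -0.61 at 120 min in WT.

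B cell genes share the lymph node with T cells and gave the following values. Their median was -0.11 between untreated genotypes, with 14 of 17 below 0, against 50%. At 120 min it was 0.05 in KO, with 0 called, and -0.55 in WT, with 15 of 17 below 0 (50.6% of all probe sets) and 2 called (0.515% of all probe sets). Those in WT were the inhibitory B cell receptor Cd22, which fell by 1.62 on the log2 scale (± 0.23, adjusted p = 0.0053), and the antigen presentation regulator H2-Ob, which fell by 0.95 (± 0.18, adjusted p = 0.0343). The difference of responses had a B cell median of 0.67, against 0.80 for the 7 T cell genes. Markers of NK and cytotoxic cells had medians of -0.16 between untreated genotypes and -0.28 at 120 min in WT over 5 genes, and those of lymph node stroma and endothelium 0.02 and -0.09 over 12 genes. The salivary list stayed at -0.07 and -0.03 over 9 genes. Whether the lists differ from each other was not tested.

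**Figure D5:**
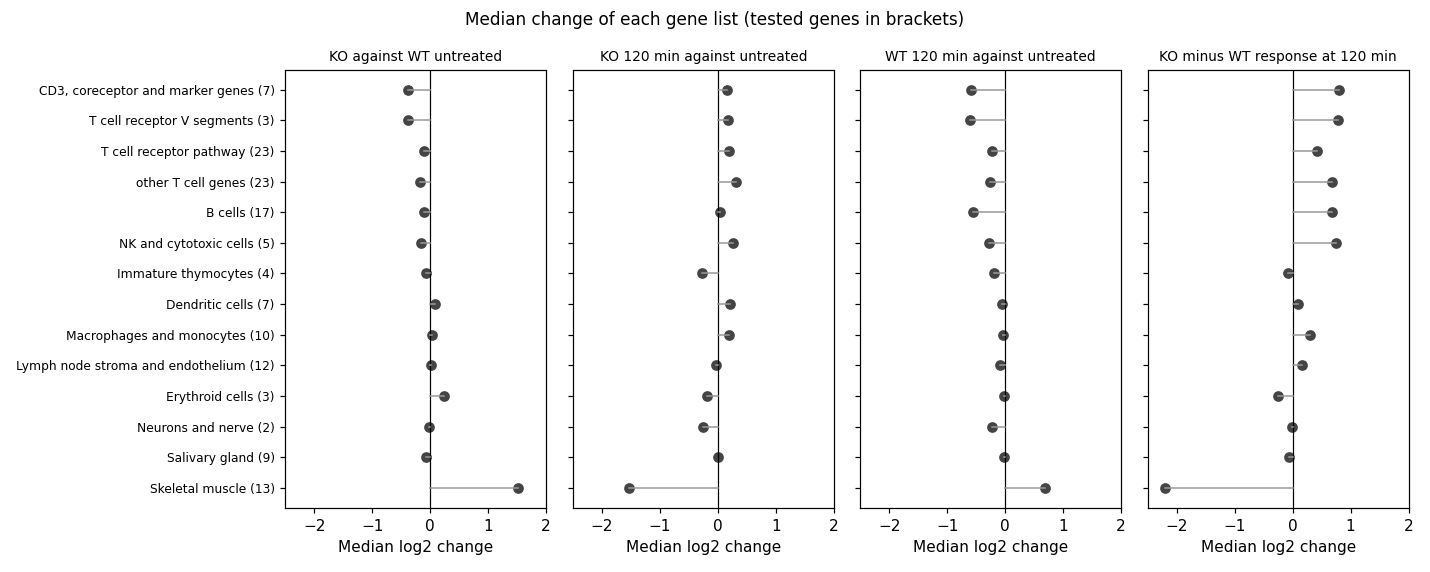
Median log2 change of the tested genes of each list (number in brackets) in 4 comparisons, on the log2(value + 32) scale; the median over all 8938 probe sets was within 0.01 of 0 in each. In WT at 120 min the medians of the T cell genes and of the B cell genes were -0.59 and -0.55, and skeletal muscle was at 1.51 between untreated genotypes and at -2.21 in the difference of responses.

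Other sources of these transcripts were looked at through marker levels. Of the nerve genes, Snap25, Nefl, Nefm and Syt1 were not tested because they stayed near the bottom of the arrays, with medians of 8.95, 11.6, 3.85 and 15.8, while the myelin genes Mbp and Pmp22 were tested. Summed over 6 nerve genes the level was 461.3 to 502.8 in untreated KO and 483 to 520.1 in untreated WT, and 348.5 to 436 in KO against 388.7 to 424.6 in WT at 120 min. These sums were carried by Mbp and Pmp22, with medians of 275 and 134, and are no measure of neurons. Of the immature thymocyte genes 4 of 5 were tested, with Rag1 at a median of 136 and Rag2 at 7.6. Their summed level was 337.5 to 441.9 in untreated KO and 434.4 to 604 in untreated WT. Between untreated genotypes 2 of the 4 tested genes lay below 0, against 50% of all probe sets, with a median of -0.07. The part of such cells in the T cell values was not tested.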

How the data were processed

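Expression was measured on 14 arrays of RNA labelled as murine lymph node. The deposited values are linear intensities, 1 per probe set and array; the sources used here do not name the authors' software, and the equal trimmed means (150.1 on every array) show that they were scaled. Groups, times and replicate letters came from sample titles. Gene names came from the platform annotation, updated by Entrez ID. Controls (66 of 12488 probe sets) were left out.

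Values were taken as log2(value + 32), quantile normalized because array medians spanned 0.273 (limit 0.2), filtered as described above, and fitted as 6 group means with limma 3.58.1 (R 4.3.3; 8 residual and 4.56 prior degrees of freedom), with Benjamini-Hochberg adjustment over 8938 probe sets. The fit was tested on simulated data. The number of arrays limits the precision. A gene of a list was represented by its tested probe set with the highest mean. Named genes were all T cell probe sets and, by correlation, the 10 most similar probe sets. Genes with values from the pathway and other T cell lists came from the 3 largest changes per comparison, but not every such gene or comparison is given. Cd22, H2-Ob, the salivary, nerve and thymocyte examples and the promoter letters were chosen outside that rule after values were seen. The T cell genes and lists were chosen with earlier results of these data known. Alternatives changed the offset, floor, normalization, filter, array weights, replicate block, arrays in the fit and a muscle covariate, and left out each array in turn. Columns of other samples numbered 0.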

Additional observations from a re-analysis of the deposited data

How the results depend on the processing

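Over the 7 tested T cell genes and 10 comparisons, 70 changes were recomputed under up to 26 alternatives each, giving 1793 values. None was called under any alternative, so the count of called T cell probe sets was 0 throughout. The sign differed in 74 values, 0 of them for a change larger than its standard error. Same-letter pairs of arrays had a median correlation of deviations from the group mean of -0.02 (31 pairs, 0 over 0.1). Pairs of different letters had a median of 0.02 (50 pairs, 3 over 0.1). Deviations in a group of 2 arrays mirror each other, so the pairs are not independent and do not settle whether letters pair the arrays. With the letter as a replicate block the called count stayed 0, Cd3e between untreated genotypes was -1.28 ± 0.34 (limma adjusted p = 0.738) and Il7r -0.59 ± 0.15 (adjusted p = 0.738). Between untreated genotypes, Cd3e lay between -1.57 and -1.11 when single arrays were left out, and Il7r between -0.65 and -0.50. Over all alternatives the adjusted p of Cd3e lay between 0.167 and 0.982. The Cd3e difference of responses at 120 min lay between 1.28 and 2.27 with single arrays left out, and the lowest value, 0.72, came from the muscle covariate. Without the 3 arrays of lowest correlation, an alternative added after seeing the data, it was 1.41 ± 0.58. With values floored at 32 the median of the 7 genes at 30 min in WT was 0.04, against -0.20 with the offset. Cd3g, Cd8a and the second Cd3d probe set, mostly below the 40th percentile, were tested only in the fit without a filter, where none was called.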
